A study of Mus musculus with 15 samples.

Results

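The 8 genes described here encode the transcription factors that specify and maintain the trophectoderm, the outer layer of the blastocyst: Tead4, Cdx2, Gata3, Eomes, Tfap2c, Elf5, Hand1 and Gata2. They were taken by name, with every probe set of the Affymetrix mouse genome array annotated to one of them, which gave 16 probe sets for 8 of the 18193 genes with a probe set of their own. All were measured in mouse embryonic stem (ES) cells, cultured cells derived from the inner cell mass. No probe set was shared with another gene.

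The trophectoderm forms the placenta and is set apart from the inner cell mass before implantation. In outer cells of the embryo, YAP1 and WWTR1 enter the nucleus, bind TEAD4 and, together with GATA3, help to switch on Cdx2, which in turn represses the pluripotency gene Pou5f1. EOMES, TFAP2C and ELF5 then sustain trophoblast stem cells, and HAND1 and GATA2 act as these cells differentiate. ES cells normally keep this program low, and Elf5 in particular is known to be held silent there by DNA methylation of its promoter.

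Total RNA of 5 ES lines was hybridised, 3 arrays to a line and 15 in all. NmB6D2 came from normal fertilisation, with a C57BL6 mother and a DBA2 father. R1, a purchased line and the other one of fertilised origin, combines 129X1/SvJ with 129S1/SvImJ. Parthenogenetic origin applies to 3 lines, made by activating oocytes without sperm: OpB6D2 from naturally ovulated oocytes of B6D2F1 hybrid mice (C57BL6 mother, DBA2 father), FpB6D2 from oocytes of the same hybrid grown inside preantral follicles in culture, and FpB6CBA likewise from B6CBAF1 hybrids (C57BL6 mother, CBA/Ca father). Follicles were collected from prepubertal females. Each line was a single derivation, and nothing says that the arrays of a line came from separate cultures, so the p-values measure the spread between arrays, which may be technical. A difference between lines can reflect strain, derivation or mode of origin, which cannot be told apart here.

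Values are RMA expression values on the log2 scale, where 1 unit is a 2-fold difference. Levels of different genes or probe sets cannot be compared on this scale, only the same probe set between arrays. The median of all values, 3.864, served as the floor below which a level was treated as weak and a gene as untested. Of the 12813 genes that reached it on at least 3 arrays, limma called 4211 (32.9%) different across the 5 lines, at an adjusted p under 0.05 and a range of line means of at least 2-fold. Medians of the arrays lay between 3.84 and 3.9. The ES cell factors Pou5f1 (line means of 11.38 to 12.02) and Sox2 (10.96 to 11.26) were high in every line, as the label of the cells says. Because the RNA comes from whole cultures, fewer cells that express a gene and less of its RNA per cell cannot be told apart.

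All 8 factors were tested, and 6 of them were called across the lines against the 32.9% of all genes: Elf5, Eomes, Hand1, Tead4, Tfap2c and Gata3. The median range of line means was 1.63 for the 8 factors and 0.74 for all genes tested. The factors, and the gene lists below, were chosen with earlier results of these data known. Their shares and ranges beside those of all genes are therefore a description, not a test. Elf5 reached the floor only on the 3 NmB6D2 arrays and so had to differ to be tested; without it, 5 of 7 were called and the median range was 1.45. No line was high for the whole group. Elf5 and Hand1 were highest in NmB6D2, Eomes in R1, Tead4 and Gata3 in FpB6D2 and Tfap2c in OpB6D2. Cdx2 and Gata2 were not called.

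**Figure D1:**
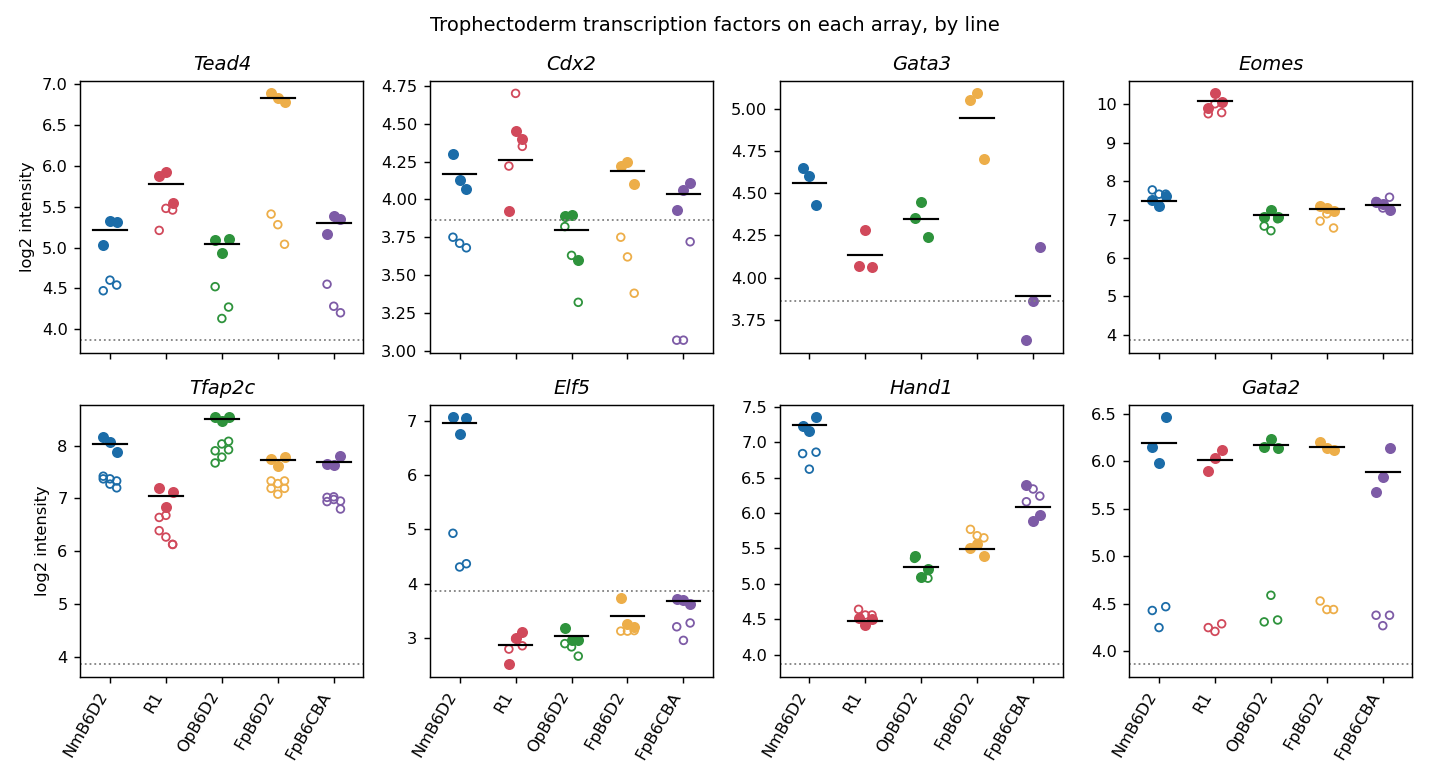
Log2 intensity of the 8 trophectoderm factors (vertical axis, own scale in each panel) on each array, grouped by line along the horizontal axis. Filled points are the brightest probe set of the gene, open points its other probe sets, bars the mean of 3 arrays and the dotted line the floor of 3.864; the Elf5 arrays of NmB6D2 stand apart at 6.75 to 7.06, as do the Eomes arrays of R1 at 9.90 to 10.28.

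The sequences just upstream of the annotated starts of Elf5 and Eomes are shown because these genes had the largest differences between lines. They are RefSeq windows of GRCm38.p6, covering 250 bases before the start and printed 5′ to 3′ on the strand of the gene. Capitals mark matches to the motifs searched. Elf5 has 2 annotated starts on chromosome 2, with windows at chr2:103411848-103412097 (plus strand) and chr2:103423818-103424067 (plus strand). Eomes has 1, at chr9:118477939-118478188 (plus strand).
Elf5 first start: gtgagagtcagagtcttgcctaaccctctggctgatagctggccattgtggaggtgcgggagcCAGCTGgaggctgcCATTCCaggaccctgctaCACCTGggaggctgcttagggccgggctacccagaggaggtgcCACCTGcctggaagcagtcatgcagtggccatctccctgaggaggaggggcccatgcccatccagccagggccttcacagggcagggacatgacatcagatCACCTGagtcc
Elf5 second start: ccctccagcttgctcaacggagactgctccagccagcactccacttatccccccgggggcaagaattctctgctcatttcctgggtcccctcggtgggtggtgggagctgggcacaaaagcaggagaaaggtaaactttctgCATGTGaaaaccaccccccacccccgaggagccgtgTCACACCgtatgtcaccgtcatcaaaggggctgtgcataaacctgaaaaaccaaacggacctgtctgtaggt
Eomes: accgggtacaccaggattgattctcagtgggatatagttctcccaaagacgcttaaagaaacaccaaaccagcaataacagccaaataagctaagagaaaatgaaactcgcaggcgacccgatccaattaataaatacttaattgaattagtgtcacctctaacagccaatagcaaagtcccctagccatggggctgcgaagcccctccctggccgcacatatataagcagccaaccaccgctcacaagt
The first Elf5 window holds 2 CpG dinucleotides, the sites of DNA methylation in mammals, and 81.2% of the 32851 windows in the table hold at least as many. The second Elf5 window and the Eomes window hold 8 each, and the median window holds 6 (quartiles 2 and 16). The arrays measured no methylation.

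Both strands were searched for 8 motifs: the TEAD core GGAATG (in 12.6% of all windows of this length), the GATA site read as AGATAA (9.99%), the E-box CANNTG bound by HAND1 and related factors (66.2%), the T-box element GGTGTGA of the EOMES family (3.33%), the AP-2 site GCCNNNGGC (13.7%), the POU octamer ATGCAAAT (1.6%), the ETS core CCGGAA of the ELF5 family (12%) and the CDX site TTTATNG (9.81%). None of these motifs overlapped another within the windows printed. The first Elf5 window had a TEAD core match with its first base at -173 from the start and E-box matches at -187, -155, -112 and -11. The second had an E-box match at -108 and a T-box match at -72. No match was in the Eomes window, which says only that these letters are not in it. Among the other factors with a window, Cdx2 had an octamer at -147, an E-box at -202 and an AP-2 match at -16, Gata3 had AP-2 matches at -246, -231 and -221 and an ETS core at -203, and the second of the Gata2 windows had a TEAD core at -120 and an AP-2 match at -222. Tead4, Tfap2c and Hand1 have no entry in the table.

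Tead4, whose product is the DNA-binding partner of YAP1 and acts first in the pathway, was highest in FpB6D2, the parthenogenetic line from follicle-grown oocytes of B6D2F1 mice. Its brightest probe set (1426337_a_at) read 6.89, 6.83 and 6.79 on the FpB6D2 arrays. The R1 arrays read 5.88, 5.92 and 5.55 and the NmB6D2 arrays 5.03, 5.32 and 5.31. OpB6D2 read 5.09, 4.93 and 5.10, and FpB6CBA 5.16, 5.39 and 5.35. Every FpB6D2 array lay above every array of the other lines, R1 lay above the remaining lines, and NmB6D2 overlapped both OpB6D2 and FpB6CBA.

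In the 10 pairwise comparisons of lines, FpB6D2 exceeded all 4 other lines in Tead4. The difference from OpB6D2, the other parthenogenetic line of that hybrid, was 1.80 ± 0.11 (SE; 3.47-fold; limma adjusted p = 2.1e-08). It was 3.06-fold from NmB6D2 (adjusted p = 1.2e-08) and 2.9-fold from FpB6CBA (adjusted p = 2e-08). From R1 it was 2.08-fold (1.05 ± 0.11, adjusted p = 7.6e-07), just past the 2-fold minimum, and it fell to 0.94 without R1 replicate 5. The other probe set (1460683_at) put R1 (5.38 ± 0.15, SD, n = 3) beside FpB6D2 (5.24 ± 0.19), with a difference of 0.14 ± 0.12 (SE, adjusted p = 0.35), so the probe sets disagree on FpB6D2 against R1. They share the low values of OpB6D2, and on both FpB6D2 was higher than NmB6D2, OpB6D2 and FpB6CBA, though by less than 2-fold on the second (0.71, 0.94 and 0.90). Hybridisation controls, spiked in at a fixed amount, averaged 9.58 to 9.88 on the FpB6D2 arrays, 9.43 to 10.2 on those of FpB6CBA and 9.10 to 9.51 on the rest, and the actin 3′ minus 5′ difference, a sign of RNA quality, was 0.62 to 0.76 in the follicle-derived lines and 0.48 to 0.55 elsewhere. Their part in the Tead4 and Gata3 results was not tested.

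Cdx2, the homeobox gene that defines the trophectoderm, stayed near the floor in all 5 lines. The brightest probe set (1422074_at) averaged 4.17 ± 0.12 (SD, n = 3) in NmB6D2, 4.25 ± 0.29 in R1, 3.79 ± 0.17 in OpB6D2, 4.19 ± 0.08 in FpB6D2 and 4.03 ± 0.09 in FpB6CBA. The range of line means was 0.46 (adjusted p = 0.023), under the 2-fold minimum, and the arrays of NmB6D2, R1, FpB6D2 and FpB6CBA overlapped while those of OpB6D2 lay just below them. The other probe set (1422075_at) reached the floor only on the R1 arrays, at 4.22, 4.70 and 4.35, against 3.07 to 3.82 elsewhere. Its range of 1.14 was called among the probe sets (adjusted p = 4.7e-04), as were 13 of the 16 probe sets of the group and 31.9% of all 24524 tested, but it had to differ to be tested. At these levels the probe sets do not settle whether R1 held more Cdx2 RNA.

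Gata3, which acts beside TEAD4 upstream of Cdx2, had a single probe set and was also weak. It read 5.05, 5.09 and 4.70 in FpB6D2 and 3.63, 3.86 and 4.18 in FpB6CBA, the highest and the lowest line. NmB6D2 (4.43 to 4.65), OpB6D2 (4.24 to 4.45) and R1 (4.06 to 4.28) lay between them. FpB6D2 stood above every other array, and each further line overlapped the next one down. Across lines Gata3 was called (range 1.06, adjusted p = 3.6e-05), and of the pairwise comparisons only FpB6CBA against FpB6D2 passed, 2.08-fold lower in FpB6CBA (-1.06 ± 0.13 SE, adjusted p = 7.9e-06). That call is at the edge of the 2-fold minimum: the difference was -0.93 without FpB6CBA replicate 1 and -0.99 without FpB6D2 replicate 2.

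Eomes, a T-box gene needed for trophoblast stem cells and also for mesoderm and endoderm at gastrulation, was high in R1 alone. Its brightest probe set (1435172_at) read 9.90, 10.28 and 10.06 on the R1 arrays. It read 7.50, 7.36 and 7.61 in NmB6D2 and 7.06, 7.25 and 7.06 in OpB6D2. FpB6D2 gave 7.35, 7.29 and 7.21, and FpB6CBA 7.46, 7.41 and 7.24. All R1 arrays stood more than 2 units above every other array, and the 4 other lines lay close together, with OpB6D2 lowest.

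R1 exceeded NmB6D2 in Eomes 6.01-fold (2.59 ± 0.10 SE, limma adjusted p = 4.1e-11), and exceeded OpB6D2 7.77-fold, FpB6D2 6.94-fold and FpB6CBA 6.53-fold (adjusted p = 1e-11, 1.6e-11 and 2e-11). Among those 4 lines the largest difference was that of OpB6D2 from NmB6D2, -0.37 ± 0.10 (adjusted p = 0.0065), under 2-fold. The other probe set (1426001_at) gave the same picture, at 9.85 ± 0.14 (SD, n = 3) in R1 and between 6.86 and 7.69 in the other line means. Of the tested genes, those whose values followed Eomes most closely over the 15 arrays, which come from only 5 lines, were the homeobox gene Msx2 (Pearson r = 0.995), Irgm1 (0.994), an interferon-induced GTPase gene, and Gas1 (0.991), a growth-arrest gene. All 3 averaged 8.98 to 9.39 in R1 and 4.43 to 5.85 in the other line means.

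Markers of mesendoderm, the gastrulation-stage progenitor that also expresses Eomes, were high in the same line. The mean of the 9 markers on the array was 6.22 to 6.47 on the R1 arrays and 3.38 to 3.77 on the arrays of the other lines. Mesp1, a mesoderm transcription factor gene, averaged 8.68 in R1 and 4.07 to 4.28 elsewhere, and Aplnr, a receptor gene of early mesoderm, 8.99 against 2.74 to 2.88. Evx1 (7.20), Mixl1 (6.82), Kdr (6.63) and Lhx1 (6.29) were also highest in R1, whereas Foxa2 was highest in FpB6CBA (5.49, against 4.72 in R1). All 7 markers tested were higher in R1 than in NmB6D2, with a median difference of 3.40, and 7.39% of all genes tested were; those that reach the floor only in R1 had to be. Gsc and Wnt3 reached the floor on fewer than 3 arrays and were not tested; Wnt3 averaged 4.22 in R1 and 2.37 to 2.57 in the other lines. The defining gene T was not analysed here. Fibroblast markers, which also mark feeder cells, averaged 7.78 to 7.82 in R1 and 6.75 to 7.73 in the other lines, but singly they were split. Col3a1 averaged 8.21 in R1 and 5.49 to 6.50 elsewhere, and Col1a1 9.17 against 7.05 to 7.86. Col1a2 (9.41), Vim (12.94) and Postn (7.39) were also highest in R1. Thy1 (5.95) and S100a4 (6.85) were lowest there, Acta2 (11.02) was highest in OpB6D2 and Dcn (5.97) in FpB6CBA. The part of these cell types in the Eomes level was not tested.

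Tfap2c, an AP-2 gene used by trophoblast, by germ cells and by naive pluripotent cells, was clearly present in every line, highest in OpB6D2 and lowest in R1. The brightest probe set (1436392_s_at) read 8.53, 8.46 and 8.53 in OpB6D2 and 8.16, 8.06 and 7.87 in NmB6D2. FpB6D2 read 7.75, 7.62 and 7.79, FpB6CBA 7.65, 7.64 and 7.80, and R1 7.19, 6.84 and 7.13. Only the arrays of FpB6D2 and FpB6CBA overlapped, with a difference of 0.02 ± 0.10 (SE).

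OpB6D2 exceeded R1 2.74-fold in Tfap2c (1.45 ± 0.10 SE, limma adjusted p = 1.2e-08), the only one of the 10 comparisons called on the brightest probe set. R1 was 1.97-fold below NmB6D2 (-0.98 ± 0.10, adjusted p = 5.8e-07), which misses the fold minimum narrowly, and the difference was -1.06 without NmB6D2 replicate 4. The same difference was called on probe set 1418147_at (-1.06 ± 0.08) and not on 1448977_at (-0.85 ± 0.12). On 1448977_at, FpB6CBA was also called below OpB6D2 (-1.08 ± 0.12). All 3 probe sets put OpB6D2 first and R1 last, with ranges of 1.53, 1.45 and 1.52. Germ cell markers averaged 6.90 to 7.07 on the OpB6D2 arrays, 6.22 to 6.46 on those of R1 and 7.25 to 7.42 on those of FpB6CBA. The single markers were split. Prdm14 (8.21) and Dazl (9.70) were highest in OpB6D2. Dppa3 (8.01), Dnd1 (7.31) and Ddx4 (7.49) were highest in FpB6CBA, and Prdm1 (5.85) in R1. Their part in the Tfap2c level was not tested.

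Elf5, the ETS-family factor that stabilises the trophoblast stem cell state, was measured above the floor only in NmB6D2. Its brightest probe set (1419555_at) read 7.06, 6.75 and 7.05 there. R1 read 2.52, 3.01 and 3.11, OpB6D2 3.19, 2.96 and 2.96, FpB6D2 3.74, 3.27 and 3.21, and FpB6CBA 3.72, 3.71 and 3.63. None of the 12 arrays of the other lines came within 3 units of NmB6D2.

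NmB6D2 exceeded each of the other lines in Elf5 at least 8.51-fold, taking the floor in place of their weaker means (limma adjusted p between 4.3e-11 and 2.2e-09). Both Elf5 probe sets passed the filter only through NmB6D2, so a difference had to be present for them to be tested. The p-values therefore add no separate support. Below the floor no order of the other lines was read. The second probe set (1419556_at) was dimmer and also reached the floor only in NmB6D2, at 4.93, 4.31 and 4.37 against 2.67 to 3.28 elsewhere. The genes closest to Elf5 over the arrays were Clic4 (r = 0.989), a chloride channel gene, Fbxo3 (0.984), an F-box gene, and Nat10 (0.977), an RNA acetyltransferase gene. Their line means in NmB6D2 were 11.22, 8.51 and 8.40, and those of the other lines lay within 10.49 to 10.64, 7.23 to 7.50 and 7.77 to 7.91.

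Hand1, a basic helix-loop-helix gene of trophoblast giant cells that is also used in mesoderm, was graded across the lines. The brightest probe set (1417525_at) read 7.23, 7.16 and 7.35 in NmB6D2. FpB6CBA followed with 6.40, 5.89 and 5.97 and FpB6D2 with 5.51, 5.56 and 5.40. OpB6D2 read 5.39, 5.10 and 5.21, and R1 was lowest with 4.52, 4.42 and 4.50. The 5 lines did not overlap, although FpB6D2 and OpB6D2 were separated by only 0.26 ± 0.11 (SE, adjusted p = 0.077).

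NmB6D2 exceeded R1 6.81-fold in Hand1 (2.77 ± 0.11 SE, limma adjusted p = 8.5e-11), OpB6D2 4.04-fold, FpB6D2 3.39-fold and FpB6CBA 2.23-fold (adjusted p = 1.7e-06 for the last). FpB6CBA exceeded R1 3.05-fold (adjusted p = 1.5e-08) and FpB6D2 exceeded R1 2.01-fold (1.01 ± 0.11, adjusted p = 2.6e-06). The call of FpB6D2 over R1 was lost without R1 replicate 4 (0.98), FpB6D2 replicate 1 (just under 1.00) or FpB6D2 replicate 2 (0.97). The other probe set (1448750_at) gave the same order of lines, with NmB6D2 at 6.78 and FpB6CBA at 6.25, a difference of 0.53 ± 0.09 that is under 2-fold. Hand1 was thus lowest in R1, the line with the highest Eomes and mesendoderm markers. The genes closest to Hand1 over the arrays were Zfp428 (r = 0.978), Morc4 (0.976) and Mal (0.971).

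Gata2, a GATA factor of differentiating trophoblast and of blood progenitors, did not pass the test. Its brightest probe set (1450333_a_at) had line means of 6.19 in NmB6D2, 6.02 in R1, 6.17 in OpB6D2, 6.15 in FpB6D2 and 5.89 in FpB6CBA, a range of 0.31 (adjusted p = 0.12). Its largest pairwise difference was that of FpB6CBA from NmB6D2, -0.31 ± 0.12 (SE). The other probe set ranged over 0.22 (adjusted p = 0.15), and on the brighter one the arrays of the highest line, NmB6D2 (5.98 to 6.46), overlapped those of the lowest, FpB6CBA (5.68 to 6.14).

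Over the 10 pairwise comparisons, 20 of the 80 member-by-comparison tests were called, or 16 of 70 without Elf5, where 10% of all such tests were. The comparisons share lines and are not independent of each other. The largest number of called factors was 3, and the called factors went both ways in several comparisons. R1 had Eomes above NmB6D2 and Elf5 and Hand1 below it (12.9% of all genes were called). FpB6D2 had Tead4 above and Elf5 and Hand1 below NmB6D2 (10.7%), while OpB6D2 and FpB6CBA each had Elf5 and Hand1 below it and none above (5.84% and 4.2%). Against R1, Eomes was lower in OpB6D2, FpB6D2 and FpB6CBA, together with a higher Tfap2c in OpB6D2 (10.2%), higher Tead4 and Hand1 in FpB6D2 (13.3%) and a higher Hand1 in FpB6CBA (18.2%). Among the parthenogenetic lines, FpB6D2 had a higher Tead4 than OpB6D2 (3.75%) and higher Tead4 and Gata3 than FpB6CBA (11.2%), and no factor was called between FpB6CBA and OpB6D2 (10%). All these calls rest on the brightest probe sets. On another probe set, FpB6CBA was called below OpB6D2 in Tfap2c (-1.08) and above it in Hand1 (1.07). Likewise OpB6D2 and FpB6CBA were called below R1 in Tead4 (-1.08 and -1.04), and FpB6CBA below R1 in Cdx2 (-1.14). R1 was called below NmB6D2 in Tfap2c (-1.06). The second Tead4 probe set called no difference of FpB6D2, and the second Hand1 probe set did not call FpB6CBA against NmB6D2.

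**Figure D2:**
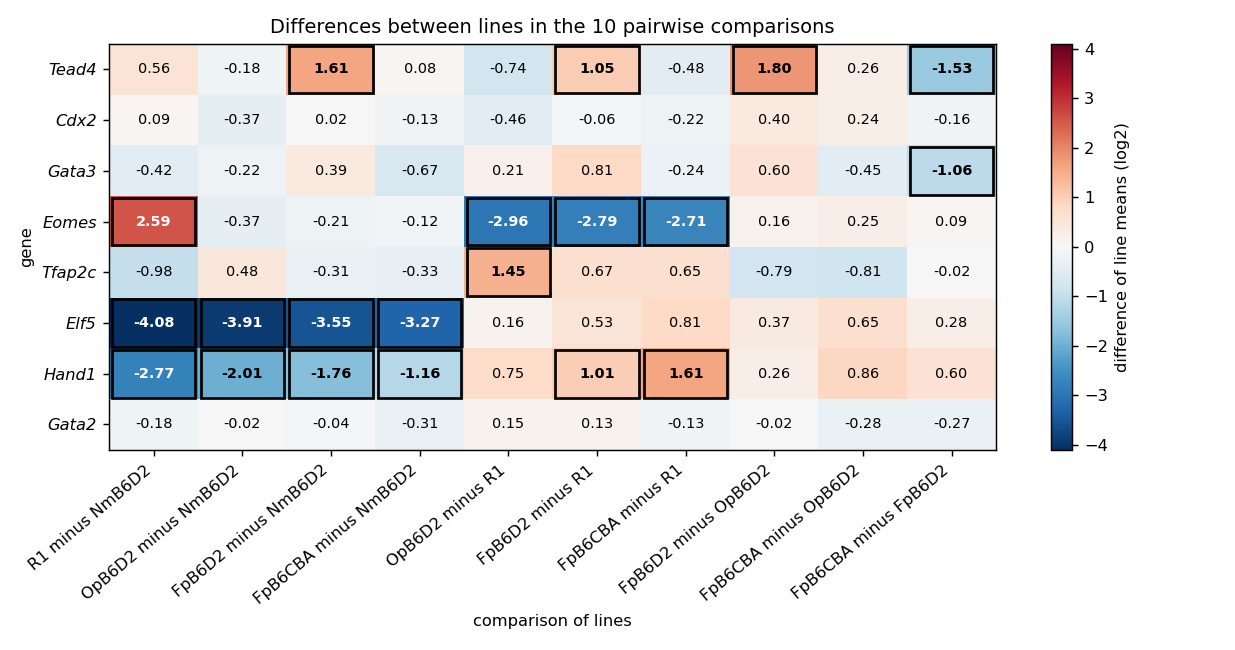
Differences of line means (log2 units, colour and printed value) of the 8 factors (rows) in the 10 comparisons of lines (columns, first line minus second). Boxes mark the 20 called differences, at least 2-fold with an adjusted p under 0.05; they gather in the comparisons with NmB6D2 for Elf5 and Hand1, with R1 for Eomes and with FpB6D2 for Tead4.

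Mode of origin was compared over line means, 3 parthenogenetic against 2 fertilised lines. None of the 8 factors was called by limma, none had an unadjusted p under 0.05, and of all genes tested 0 (0%) were called and 606 (4.73%) had an unadjusted p under 0.05. With the line as a random block over all arrays, 56 genes were called and again no factor. Eomes differed by -1.53 ± 0.75 (SE, adjusted p = 0.92) and Elf5 by -1.54 ± 1.17 (adjusted p = 0.92), each because 1 of the 2 fertilised lines was high. Without NmB6D2, R1 was the only fertilised line, so the spread came from the 3 parthenogenetic lines alone and the fit compared them with R1, not with fertilised lines. There Eomes was called at -2.82 ± 0.24 (adjusted p = 0.039), 1 of 66 genes called among all 12813.

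The Hippo pathway and other upstream signals decide whether YAP1 reaches TEAD4. Of 21 such genes tested, 12 were called across the lines (32.9% of all genes), with a median range of 1.13. Amot, an angiomotin gene whose product holds YAP1 out of the nucleus, had the widest spread, from 10.08 in R1 through 6.92 in FpB6CBA and 6.63 in NmB6D2 to 5.59 in OpB6D2 and 4.28 in FpB6D2. R1 thus had 55.4-fold more Amot signal than FpB6D2 (limma adjusted p = 1.7e-11), where Amot lay near the floor. FpB6D2 had the highest Tead4 on the brightest probe set, but R1 had it on the other. A link between Amot and Tead4 was not tested. Amotl1, its relative, was highest in NmB6D2 (8.43) and lowest in FpB6D2 (6.48). The YAP1 gene itself (9.04 to 9.71) and the TEAD genes Tead2 and Tead3 were not called, whereas Tead1 was (7.82 in FpB6CBA to 9.33 in R1). Wwtr1, the gene of the other TEAD4 partner, was also called. It averaged 8.82 to 8.88 in R1, NmB6D2 and FpB6CBA, 8.13 in OpB6D2 and 7.74 in FpB6D2. Bmp4, a signal that drives ES cells toward trophoblast in culture, was also called, from 7.68 in OpB6D2 to 9.57 in R1.

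Of 14 partner transcription factors tested, 5 were called across the lines, close to the share of all genes, with a median range of 0.90. Msx2 followed Eomes, at 9.13 in R1 and 4.84 to 5.39 in the other lines. Ascl2, an imprinted gene of the spongiotrophoblast, was highest in FpB6CBA (7.07) and 4.87 to 5.76 elsewhere. Id2, an inhibitor of helix-loop-helix factors such as HAND1, was highest in NmB6D2 (8.81) and lowest in OpB6D2 (6.90), and Hopx was highest in R1 (8.38). The trophoblast factor gene Tfap2a stayed between 4.04 and 4.32 and was not called.

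Of the genes made by trophoblast cells, 12 of 15 tested were called across the lines (32.9% of all genes), with a median range of 2.98 against 0.74 for all genes. This list, too, was chosen with earlier results of these data known. The keratins, which other epithelia also make, were high in NmB6D2, FpB6CBA and, except Krt7, in R1. Krt7 averaged 8.57 in NmB6D2, 7.88 in FpB6CBA, 5.91 in FpB6D2, 4.80 in R1 and 4.49 in OpB6D2. Krt8 and Krt18 lay between 10.88 and 11.28 in NmB6D2, R1 and FpB6CBA, at 9.22 and 9.29 in FpB6D2 and at 7.73 and 7.72 in OpB6D2, and Krt19 ran from 5.75 in OpB6D2 to 10.25 in R1. The X-linked homeobox gene Rhox6, of placenta and germ line, was high in 4 lines (7.39 to 8.94) and below the floor in R1 (3.45). Aqp3 ran the other way from the keratins. It averaged 8.23 in OpB6D2 and 7.80 in FpB6D2, against 5.25 in NmB6D2, 5.53 in R1 and 5.67 in FpB6CBA. Tpbpa and Ctsq, products of mature placental cells, were below the floor.

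These products did not follow Elf5 line by line. By their mean level and by Hand1 alike, NmB6D2 and FpB6CBA ranked above FpB6D2, and OpB6D2 and R1 below it. Within each of those pairs the order was reversed. FpB6CBA had 2 of the 15 above NmB6D2 and 0 below it (2.57% and 1.63% of all genes), with Elf5 below the floor and Hand1 2.23-fold lower. Their mean level, over 17 genes on the array, was 8.03 to 8.15 on the FpB6CBA arrays, 7.74 to 7.84 in NmB6D2, 7.08 to 7.10 in FpB6D2, 6.72 to 6.76 in R1 and 6.50 to 6.65 in OpB6D2. Markers of primitive endoderm, an epithelium that shares keratins and Dab2 with trophoblast, also had their highest mean in FpB6CBA. It was 7.15 to 7.48 there, against 5.62 to 6.38 in the other lines. Singly, Gata4 (7.40) and Pdgfra (6.93) were highest in R1 and Sox7 (6.58) in FpB6D2, and the other markers in FpB6CBA. OpB6D2, with the highest Tfap2c, had the lowest keratins. The part of primitive endoderm in these values was not tested.

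**Figure D3:**
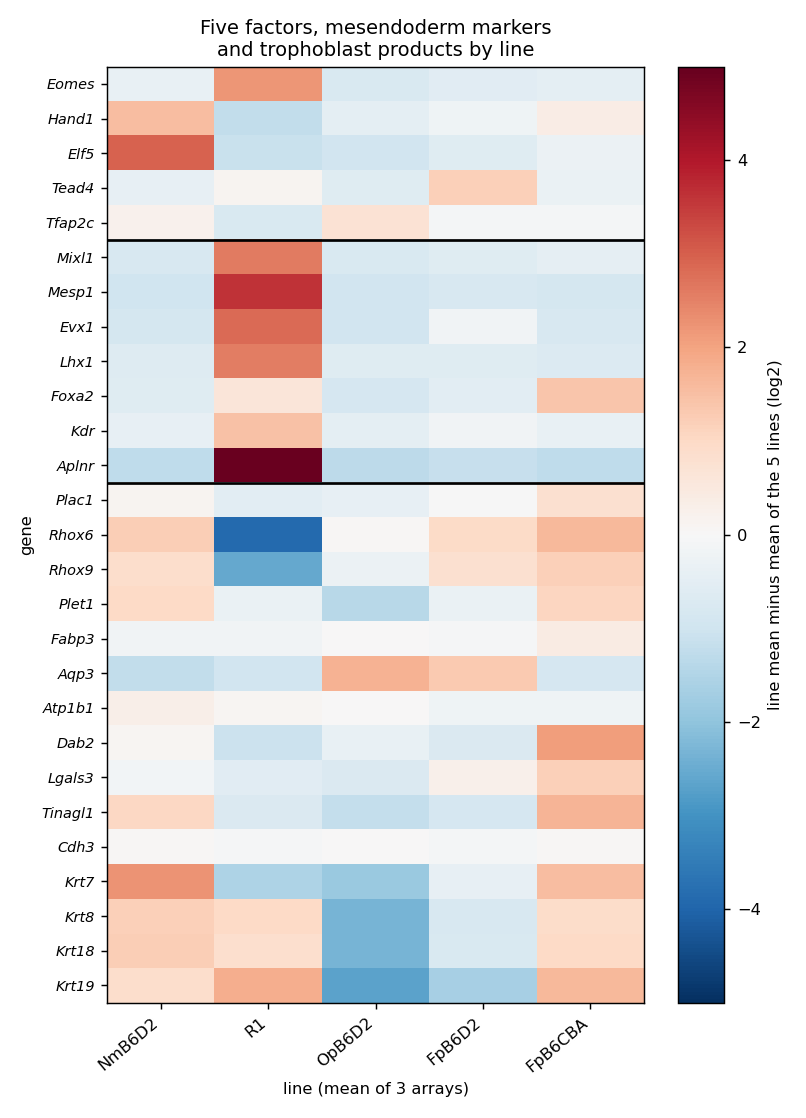
Line means (3 arrays each) of 5 called factors (top block), 7 mesendoderm markers (middle) and 15 trophoblast products (bottom), as the difference in log2 units from the mean of the 5 lines, with red above and blue below it. The mesendoderm block is red in R1, beside Eomes, except that Foxa2 is highest in FpB6CBA; the trophoblast block is red mainly in NmB6D2 and FpB6CBA.

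ES cells keep the trophectoderm program down through pluripotency factors and chromatin repressors. Of 14 such genes tested, 4 were called across the lines (32.9% of all genes), with a median range of 0.72, close to the 0.74 of all genes. Dnmt3a, a de novo DNA methyltransferase gene, averaged 9.04 in NmB6D2 and 9.01 in OpB6D2, and 6.26 in R1, the lowest line, which was 6.87-fold below NmB6D2 (limma adjusted p = 2.5e-12). OpB6D2 differed from NmB6D2 in Dnmt3a by only -0.04 ± 0.08 (SE). Dnmt3b ran from 10.68 in NmB6D2 to 8.63 in R1. The part of these 2 genes in the Elf5 level was not tested. The maintenance methyltransferase gene Dnmt1 was not called (9.09 to 9.47). Nanog, a pluripotency factor gene, was lowest in FpB6CBA (9.81) and 10.43 to 11.39 elsewhere, and Uhrf1, the partner of DNMT1, ran from 9.54 in FpB6D2 to 10.55 in OpB6D2. Pou5f1, the target of CDX2 repression, was not called.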

How the data were processed

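Total RNA of 5 mouse ES lines was hybridised to 15 arrays. Per the submitters' processing notes, the authors used RMA (affy), with versions not given; the deposited values run from 1.99 to 13.96, so they were read as log2. Dim values are compressed, so folds of weak genes are understated. Probe sets were named through GEO's platform annotation: of 45101, 34945 had 1 gene symbol and 932 several, and the rest none. No sample column was left unused. Arrays were grouped by the labels.

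Each gene was represented by its brightest probe set (mean over all arrays, 1 symbol). Genes had to reach the median of all values, 3.864, on 3 arrays, which left 12813 and removed 5380. limma 3.58.1 in R 4.3.3 fitted a mean per line, with a moderated F test over the lines, 10 pairwise contrasts, a fit per probe set and a fit on line means for mode of origin. Adjustment was Benjamini-Hochberg over all genes; called means adjusted p under 0.05 and at least 2-fold. The fit was tested on simulated data. Samples carry replicate numbers, but the deviations of same-numbered arrays showed no pairing, which does not exclude one. The alternatives were other probe set rules, filters, normalisations, fold minimums, arrays or lines left out and a replicate block.

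The factors and gene lists were chosen with earlier results of these data known. All factors are named; of each list, up to 4 called genes with the widest range, Pou5f1, Nanog, Sox2 and 4 keratins, and the 3 genes most correlated with each of the 3 factors of widest range. Yap1, Tead1, Tead2, Tead3, Tfap2a, Dnmt1, Kdr, Lhx1, Foxa2, Gsc, Wnt3, Tpbpa, Ctsq and Dab2 were named after their values were seen. So were Aqp3, Dnd1, Ddx4, Pdgfra, Wwtr1, Postn, Thy1, S100a4, Acta2 and Dcn. Called across lines were 10 of 10 primitive endoderm, 6 of 6 germ cell, 8 of 9 fibroblast, 2 of 4 blood progenitor, 2 of 3 neuroectoderm and 2 of 5 ES cell markers, against 32.9% of all genes. The number of arrays limits the precision.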

Additional observations from a re-analysis of the deposited data

How the results depend on the processing

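Of the 20 called differences between lines, 16 kept their call under all 30 settings tried and 4 lost it under at least 1; no called difference changed sign. Those 4 were called at 2.01-fold to 2.23-fold. Besides the arrays named above, averaging the probe sets of a gene lowered Tead4 in FpB6D2 against R1 to 0.46. It lowered Hand1 in FpB6CBA against NmB6D2 to -0.84. The second probe sets alone gave -0.14 and -0.53 for these 2 differences, so there the probe sets disagree. Median centring lowered Hand1 in FpB6D2 against R1 to 0.98. The fold minimum set the counts: with none, 11143 genes were called across the lines and 50 member-by-comparison tests, and at 1.5-fold 7998 and 34. Leaving out 1 array at a time gave 4192 to 4248 genes, 5 to 6 factors, 18 to 21 member-by-comparison calls and 12 to 13 member probe sets. Leaving out the line NmB6D2 gave 1 factor between parthenogenetic and fertilised lines, Eomes, among 66 genes called; R1 was then the only fertilised line and gave no spread of its own. Taking the most variable probe set of each gene made Cdx2 a called factor, through its R1 values. Deviations of same-numbered arrays of different lines correlated at -0.18 to 0.13 (12 pairs, 1 over 0.1), and those of different-numbered arrays at -0.11 to 0.14 (55 pairs). No pairing by number showed, but so few arrays to a line cannot exclude one. The replicate block was fitted on the 13 arrays with a number in the title. It gave 4388 genes, 5 factors, 18 calls and 11 member probe sets. Without the block these arrays gave 4262 genes, 6 factors and 21 calls, a setting added after seeing the data. The block lost Gata3 in FpB6CBA against FpB6D2 (-0.97) and Hand1 in FpB6D2 against R1 (0.95). Cdx2, Gata3 and all Elf5 values outside NmB6D2 lie near or below the floor, where signal over background limits the fold.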

Other observations

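The genes beside each factor on its chromosome were read after the results above were seen. Gene order was taken from RefSeq's GRCm38.p6 table, and the 20 nearest tested genes, 10 on each side where the order allows, were compared between the line in which the factor was highest and the mean of the 4 other lines. Around Tead4, 14 of 20 neighbours were highest in FpB6D2, where 22.7% of all genes were, and 6 of these were also called across the lines (5.98% of all genes). They were Tigar (1.21 above the other lines), a p53-regulated metabolic gene, Pzp (1.23), Vwf (1.18), D6Wsu163e (0.90), Prmt8 (0.66) and the cell cycle factor gene Foxm1 (0.60). Not all of these were particular to FpB6D2: Prmt8 averaged 6.86 there, 6.85 in OpB6D2 and 6.83 in FpB6CBA, Pzp 6.63, 6.34 and 6.03 in these lines, and Vwf 5.45 in FpB6D2 and 5.20 in FpB6CBA. The median neighbour was 0.36 higher in FpB6D2, and Tead4 itself stood above all 20.

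Around Elf5, 7 of 20 neighbours were highest in NmB6D2, where 14.6% of all genes were, and 3 of these were called (4.12%): Abtb2 (1.57 above the other lines), Fbxo3 (1.10) and Hipk3 (0.98). Fbxo3 and Nat10, 2 of the 3 genes whose values followed Elf5 most closely over the arrays, lie 6 and 3 tested genes from it on the same side. On the other side Cd44 was lower in NmB6D2 by 1.03. Elf5 stood above all of its neighbours. Around the other factors the number of neighbours highest in the line of the factor was 7 for Cdx2 and 5 for Eomes (24.6% of all genes were highest in R1), 4 for Gata2 and 3 for Hand1 (14.6% in NmB6D2), 3 for Gata3 (22.7% in FpB6D2) and 0 for Tfap2c (13.7% in OpB6D2).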
